A study of Malus hupehensis with 3 samples.

Results

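Among the 172 miRNAs that had been predicted from leaf small RNAs of *Malus hupehensis*, an apple species used as a rootstock, 66 were exactly 23 nt long. They were chosen by length alone, from the 380 entries of the deposited count lists whose sequence carried a predicted name. The other predicted miRNAs were 20 nt (6), 21 nt (84) or 22 nt (16) long, and none of the 85 distinct known mature sequences was longer than 22 nt. Adult phase (A) leaves came from the tops of 18 trees that were 6 years old, and juvenile phase (J) leaves came from the base of the trees. RNA of each phase was pooled into 1 small RNA library, and a degradome library, which holds the 5′ ends of cleaved mRNAs, was made from the J RNA only. No genotype or treatment distinguished the groups, phase goes with the position on the tree, and without replicates the comparison of A with J is one of 2 single libraries. The labelled tissue could not be checked against marker genes, because small RNA counts hold none. Values are given as deposited read counts or as reads per 1000000 clean reads (RPM), and the depth of the libraries makes 1 read worth 0.0617 RPM in A and 0.0738 RPM in J.

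Plant miRNAs are cut from hairpin precursors, mostly by DICER-LIKE1. Many begin with uracil, the 5′ base preferred by ARGONAUTE1, and act by cleaving mRNAs opposite the middle of the miRNA. Other plant small RNAs are siRNAs cut from double-stranded precursors, among them the longer siRNAs of repeats, which are made by DICER-LIKE3 and enter ARGONAUTE4, a protein that prefers a 5′ adenine. The 4 most read members are shown first because they held most of the members' reads over both libraries together, with the seed (bases 2 to 8) in capitals.
novel_miR275: aCGGAACGggacgggacgggaca
novel_miR130: aAUUGACGuuaaacugugaggua
novel_miR290: aCGGGACGggacgggacgggaca
novel_miR64: gUUGAAUUuugaucaaacgguua

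The 6 members with reads in both libraries whose RPM differed by at least 2-fold between A and J are shown next. No other member with reads in both libraries differed as much. The seed is again in capitals. The first 5 had more reads in A and the last had more in J.
novel_miR267: uAAGAGGGugggagagugggcua
novel_miR249: aAUGUAUGggaagugggagggua
novel_miR326: uCGUGGUUugugggagaugucua
novel_miR27: aGGGCACUgaaaguggaaggaca
novel_miR292: aGAACUUCugcagaaccagguca
novel_miR115: aAAUUAGGuguagaaagagguua

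Further members, taken from the 5 most read in each single library, are shown because 41 members were listed in a single library. Reads in A only were found for the first 3 and reads in J only for the last 3, with the seed in capitals.
novel_miR237: aGGACACCggaaguaggagggca
novel_miR269: aUGUGGGAcucacauguauuaga
novel_miR139: aAAUUGAGuguagaaagagguua
novel_miR429: uCUUGAAAugagaaagucugaua
novel_miR396: aCGGAACGaagguguaauuuuua
novel_miR467: aGGAGAGCaacuuacaugaaaca

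All of the sequences shown above ended in adenine, and the base before it was mostly uracil or cytosine. Over all 66 members, the first base was adenine in 34 (51.5%, exact 95% interval 38.9 to 64.0), uracil in 20 (30.3%), guanine in 10 (15.2%) and cytosine in 2. In those of 21 nt, adenine came first in 20 of 84 (23.8%, 15.2 to 34.3) and uracil in 49 (58.3%, 47.1 to 69.0). The last base was adenine in 50 of the 66 members (75.8%, 63.6 to 85.5) and in 25 of the 84 of 21 nt (29.8%, 20.3 to 40.7). Adenine thus had the larger share at both ends in the members, and 30 of the 34 that began with adenine also ended with it. Of the 20 sequences of 21 nt that began with adenine, 5 did so. These shares are descriptions of the 2 lists, and no test was made of their difference.

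The 3′ end of the members was more uniform than the 5′ end. Position 20 was guanine in 60.6% of the members and position 22 was uracil in 54.5% and cytosine in 28.8%. The last pair of bases was UA in 29 members and CA in 18, together 47 of 66 (71.2%, 58.7 to 81.7), and 13 of 84 sequences of 21 nt ended so (15.5%, 8.51 to 25.0). Guanine, any base, uracil or cytosine, and then adenine closed 33 of the 66 members (exact 95% interval 37.4% to 62.6%) and 6 of the 84 of 21 nt (7.14%, 2.67 to 14.9). Both 3′ features were chosen after the sequences had been seen. Members that share sequence are not independent, and with 1 member kept for each group of related sequences, 53.7% began and 79.6% ended with adenine. The terminal bases were spread over the libraries as well, since adenine came last in 19 of the 25 members with reads in both libraries, in 21 of the 29 in A only and in 10 of the 12 in J only. The GC content ran from 26.1% to 73.9%, with a median of 39.1%, beside 38.1% in the sequences of 21 nt. An ambiguous base letter was deposited in 3 members, novel_miR148, novel_miR153 and novel_miR424.

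**Figure D1:**
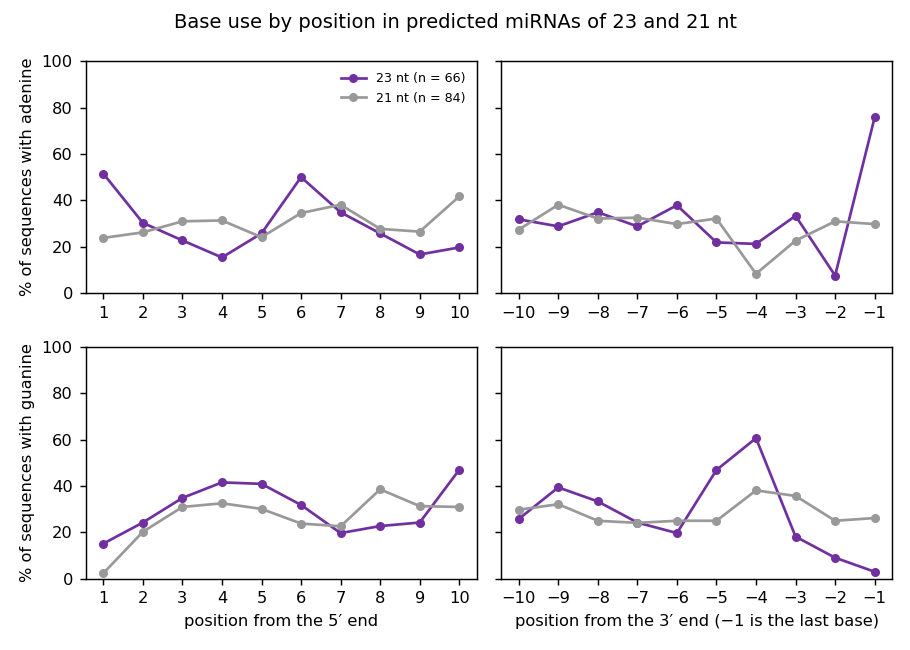
Share of predicted miRNAs (percent) with adenine (upper panels) and guanine (lower panels) at each of the first 10 positions from the 5′ end (left) and the last 10 from the 3′ end (right), for the 66 of 23 nt (purple) and the 84 of 21 nt (grey). Adenine reached 51.5% at the first and 75.8% at the last base of the members, and guanine reached 60.6% at the fourth base from their 3′ end.

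Members were read more in A than in J. In A, 54 members held 5392 reads (332 RPM), and in J, 37 held 1918 reads (142 RPM). The ratio of the sums, J over A in RPM, was 0.426 (0.404 to 0.449), and the sums of the 84 sequences of 21 nt were 21728 in A and 32214 in J, at 1.78 (1.74 to 1.81), which fell to 0.755 when the libraries were scaled by known miRNA reads, where the members' ratio was 0.181. The 95% interval of a ratio is exact (Clopper-Pearson), from how the reads divide over A and J. It covers counting error only, since no replicate library exists. Reads amplified by PCR and lacking molecular identifiers also do not each stand for a molecule. The sums lean on single sequences. Without novel_miR275, which had 1835 reads in A and was listed at 0 in J, the ratio was 0.646, and over the 25 members with reads in both libraries it was 0.772. The members made up 19.2% (18.7 to 19.7) of all reads of predicted miRNAs in A and 5.48% (5.24 to 5.72) in J.

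Most members were rare. The larger of the A and J values lay below 2 RPM for 35 members and at 10 RPM or more for 5, and 49 members had 50 reads or fewer in both libraries. At the low end, every predicted miRNA of any length reached 1 RPM in a library. The paper states that predicted miRNAs of low expression were removed at a cutoff of 10 RPM. On the scale of clean reads, only 24 of all 172 predicted miRNAs reached 10 RPM in a library. The listed counts therefore do not follow the stated cutoff on this scale, and the reason was not tested. Members with the fewest reads, 17 in A only or 14 in J only, stood at 1.05 and 1.03 RPM. Among the members, the smallest count above 0 was 10 in A and 7 in J. A listed 0 was therefore not taken as absence from the library, and no ratio or bound is given for members read in 1 library.

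Reads were concentrated in a few sequences. The 5 members with the most reads in A held 63.5% (62.2 to 64.8) of the members' reads there. In J, the 5 with the most J reads, which were not all the same members, held 59.1% (56.9 to 61.3). For novel_miR275, 1835 reads gave 113 RPM in A, which was 34.0% of the members' reads there. The count of novel_miR130 was 498 in A against 406 in J, which gave a ratio of 0.976 (0.854 to 1.12). That of novel_miR290 was 597 in A and 263 in J, or 36.8 and 19.4 RPM. These 3 thus differed in their balance, with novel_miR130 nearly even on the scale of clean reads and novel_miR290 higher in A by less than 2-fold. For novel_miR64, A held 248 reads against 214 in J, which gave a ratio of 1.03 (0.856 to 1.25). For novel_miR260, the counts were 244 and 151, at 0.741 (0.601 to 0.911). For novel_miR136, they were 96 and 100, at 1.25 (0.933 to 1.67). The intervals of novel_miR64 and novel_miR136 held 1, so on this scale neither library was higher beyond counting error. At about 100 reads in A followed novel_miR30, with 112 in A and 53 in J, novel_miR244, with 104 and 57, and novel_miR59, with 80 and 63. The tenth by reads, novel_miR237, had 123 reads in A and was listed at 0 in J.

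**Figure D2:**
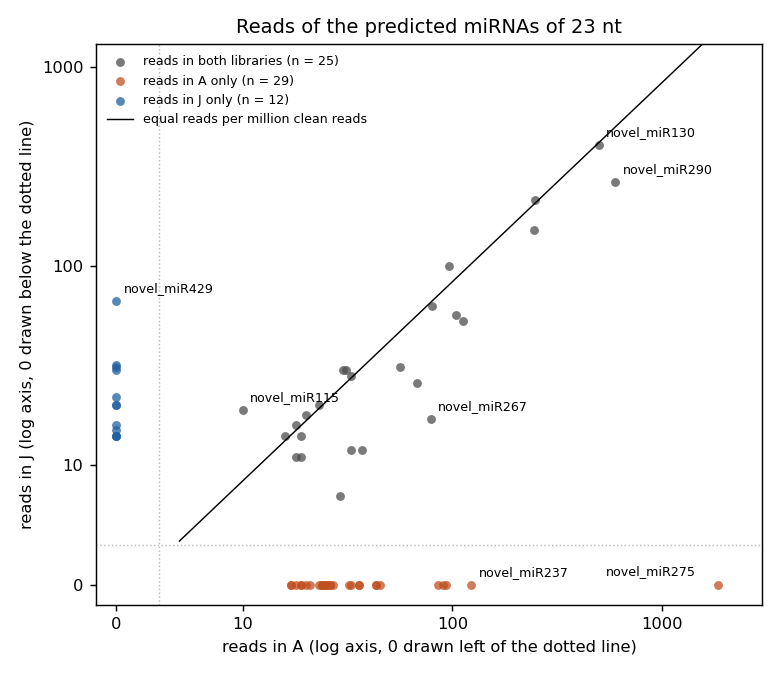
Reads of each of the 66 members in A (horizontal) and J (vertical), both on log axes with 0 drawn beyond the dotted lines, coloured by the libraries in which reads were listed. The black line marks equal RPM, novel_miR275 lies at 1835 reads in A and 0 in J, and 12 members lie at 0 in A.

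Most members were listed with reads in 1 library only. Reads were listed in both for 25 members (37.9%), in A only for 29 (43.9%) and in J only for 12 (18.2%). Over all 172 predicted miRNAs, the members included, 82 (47.7%) were read in both, 48 (27.9%) in A only and 42 (24.4%) in J only. At 21 nt, 49 of the 84 (58.3%) were read in both, 11 (13.1%) in A only and 24 (28.6%) in J only, so the lean of the single-library sequences was toward A at 23 nt and toward J at 21 nt. Of the 16 of 22 nt, 6 had reads in both, 7 in A only and 3 in J only. The split at 22 nt leaned to A as it did at 23 nt, on few sequences.

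**Figure D3:**
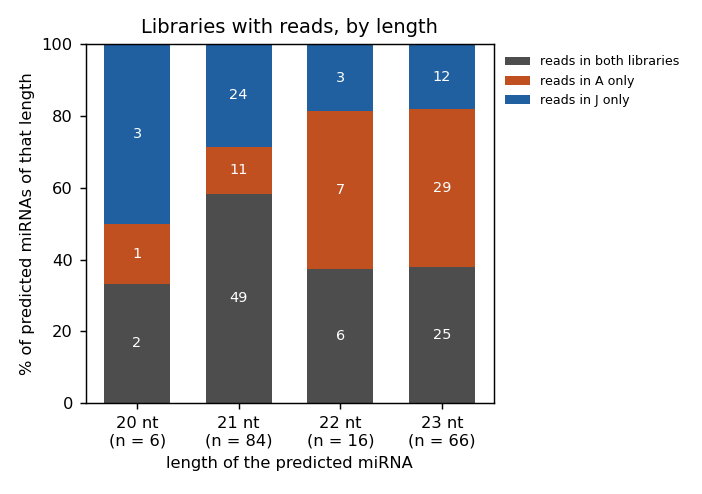
Predicted miRNAs of each length (bars, percent of the n under each bar) with reads in both libraries, in A only or in J only, with their number inside the bars. Reads in A only were found for 29 of the 66 members of 23 nt and for 11 of the 84 of 21 nt.

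The 29 members with reads in A only held 2874 reads, from 17 to 1835 with a median of 26. After novel_miR275, the largest were novel_miR237 (123 reads), novel_miR269 (93), novel_miR250 (90) and novel_miR139 (85). The others had 45 reads or fewer. The 12 with reads in J only held 295 reads, from 14 to 67 with a median of 20. The largest was novel_miR429, with 67 reads or 4.95 RPM, followed by novel_miR396 (32), novel_miR467 (31), novel_miR390 (30) and novel_miR364 (22). No J-only member came near the reads of novel_miR275 or novel_miR237. The names also split by library, because members with reads in A carried numbers from 5 to 336 and those in J only from 364 to 505. Over all predicted miRNAs the ranges were 2 to 348 and 353 to 510, so the number in a name tells whether reads were listed in A.

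A member with reads in both libraries was called higher in A or J when its ratio was at most 0.5 or at least 2, its interval excluded 1 and a library held 10 or more reads. By this rule, 5 of the 25 members (20%) were higher in A and 1 (4%) was higher in J. Over all 82 predicted miRNAs with reads in both libraries, the members included, the rule called 7.32% higher in A and 26.8% in J. Over those and the known sequences, 149 in all, it called 7.38% higher in A and 28.9% in J. The members supplied 5 of the 6 predicted miRNAs called higher in A and 1 of the 22 called higher in J. The median ratio of the 25 was 0.882 (range 0.258 to 2.27), and 15 of them lay below 1. It was 1.72 for the 49 of 21 nt, of which 6 lay below 1, and 1.40 over all 82 predicted ones. The medians depend on the scale. With each library divided by its known miRNA reads, which lowers every ratio alike, the median was 0.375 for the members and 0.734 for the 21 nt sequences. On that scale 22 of the 25 members were called higher in A and 0 in J. Over all 82 predicted miRNAs, the members included, it called 33 higher in A and 3 in J, and 9 of the 49 of 21 nt higher in A. The medians of the members and the 21 nt sequences were 0.545 and 1.07 with the median known ratio set to 1 and 0.737 and 1.44 with no scaling. Each scale multiplies all ratios by 1 factor and so cannot change their order.

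The members called higher in A were read at low levels. The count of novel_miR267 was 79 in A against 17 in J, or 4.87 and 1.25 RPM, with a ratio of 0.258 (0.143 to 0.439). That of novel_miR249 was 29 in A against 7 in J, at 0.289 (0.107 to 0.674). That of novel_miR326 was 37 in A against 12 in J, at 0.388 (0.184 to 0.761). For novel_miR249 the interval spanned a wide range, on 36 reads in all. The count of novel_miR27 was 33 in A against 12 in J, at 0.435 (0.205 to 0.865). That of novel_miR292 was 68 in A against 26 in J, at 0.458 (0.280 to 0.729). All 5 were also called higher in A on the other 3 scales, each of which lowers the ratio. Only novel_miR267 and novel_miR292 held 50 reads in a library. The single call in the other direction, novel_miR115, had 10 reads in A and 19 in J, at 2.27 (1.01 to 5.48), and was not called on any other scale, with a ratio of 1.90 with no scaling, 1.41 with the median known ratio set to 1 and, below 1, 0.968 with known miRNA totals. It rests on 29 reads.

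Just outside the threshold of 0.5 lay novel_miR290, at 0.527 (0.454 to 0.611), and novel_miR30, at 0.567 (0.401 to 0.792). Both were called higher in A on every other scale. Next were novel_miR244, at 0.656 (0.467 to 0.915), novel_miR165, with 56 reads in A against 31 in J, at 0.663 (0.413 to 1.05), and novel_miR260, at 0.741. Of the 25 members, 9 had an interval below 1, 1 had an interval above 1 and 15 had an interval that included it. This depends on the scale, since 13 of those 15 were called higher in A with known miRNA totals, all but novel_miR136 and novel_miR188.

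**Figure D4:**
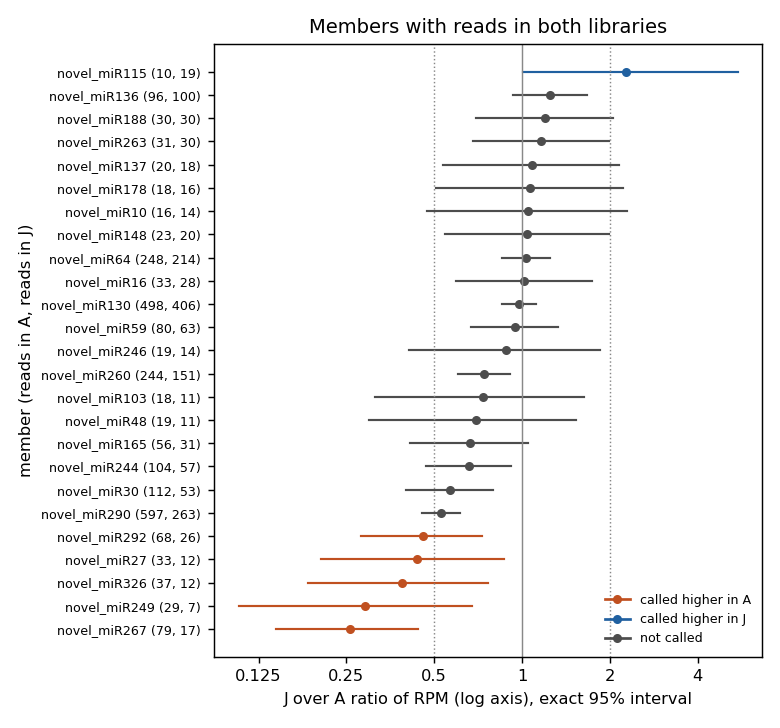
J over A ratio of RPM (log axis) of the 25 members with reads in both libraries, with points for the ratio, bars for the exact 95% interval (counting error only) and the reads in A and J beside each name. The dotted lines mark ratios of 0.5 and 2, and 5 members called higher in A (orange) and 1 called higher in J (blue) lie beyond them.

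The most abundant member had a near copy. The sequences of novel_miR275 and novel_miR290 differed at a single base, A5G (novel_miR275 first, positions from the 5′ end), which is in capitals.
novel_miR275: acggAacgggacgggacgggaca
novel_miR290: acggGacgggacgggacgggaca

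Both are built of a 5-base unit, and the repeat of ACGGG ran over 22 bases of novel_miR290 and over 17 of novel_miR275. Their GC contents were 73.9% and 69.6%. Despite the single difference, novel_miR275 was listed with 1835 reads in A and none in J, whereas novel_miR290 had 597 and 263. Summed, the pair held 2432 reads in A against 263 in J (ratio 0.129, 0.114 to 0.147), and without the pair the summed ratio of the members was 0.669. The seed of novel_miR275 was also that of novel_miR396, which was read in J only, although the sequences differ beyond it.

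Other members also came as families. With an identical run of 12 or more bases on the same strand as the link, 18 of the 66 members fell into 6 groups. The largest held novel_miR64, novel_miR148, novel_miR205, novel_miR233, novel_miR324 and novel_miR390. A run of 13 bases, UUUGAUCCAACGG, was found whole in 4 of these 6. It is in capitals where it or at least 10 bases of it occur, to show how the frame shifts from member to member.
novel_miR205: guugaauUUUGAUCCAACGGcua
novel_miR324: ucuugaaaUUUGAUCCAACGGuu
novel_miR390: uUUUGAUCCAACGGcuacaaaua
novel_miR233: UUUGAUCCAACGGcuaaaauuau

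The same run occurred on the opposite strand in 4 further members, novel_miR103, novel_miR212, novel_miR246 and novel_miR250, where at least 10 bases of its reverse complement, CCGUUGGAUCAAA, are in capitals. The whole run, on either strand, was in 5 members and in 0 predicted miRNAs of other lengths.
novel_miR103: uuuguaaCCGUUGGAUCAAAauc
novel_miR212: uguuuguaauCGUUGGAUCAAAu
novel_miR246: uguuuguagaCGUUGGAUCAAAu
novel_miR250: cucuguuuguagCCGUUGGAUCA

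On the strands given, novel_miR250 could pair without a mismatch over 18 bases with novel_miR390, bases 6 to 23 of the first with bases 4 to 21 of the second, and these bases are in capitals.
novel_miR250: cucugUUUGUAGCCGUUGGAUCA
novel_miR390: uuuUGAUCCAACGGCUACAAAua

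They were read in opposite libraries, novel_miR250 with 90 reads in A and novel_miR390 with 30 in J. The 10 sequences of this family, both strands and novel_miR64 included, held 510 reads in A against 289 in J (ratio 0.678, 0.585 to 0.785), with 4 read in both libraries, 5 in A only and 1 in J only. Most J reads of the family, 214, were those of novel_miR64. On the first strand, novel_miR148 had 23 reads in A against 20 in J, and novel_miR205, novel_miR233 and novel_miR324 had 45, 24 and 18 in A and a listed 0 in J. On the other strand, novel_miR103 had 18 in A and 11 in J, novel_miR246 had 19 and 14, and novel_miR212 had 25 in A only. The members of the family therefore differed in the library they were listed in while they shared this run or a close variant of it.

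A further group was novel_miR115, novel_miR139 and novel_miR178, which differed only at bases 6 and 7. Against novel_miR178, novel_miR115 differed by A6G and novel_miR139 by A7G (the base of the named member first), with the differing base in capitals.
novel_miR115: aaauuAgguguagaaagagguua
novel_miR139: aaauugAguguagaaagagguua
novel_miR178: aaauuggguguagaaagagguua

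The reads of this group were split 10 in A and 19 in J for novel_miR115, 85 and 0 for novel_miR139, and 18 and 16 for novel_miR178. Their sum was 113 reads in A against 35 in J (ratio 0.371, 0.246 to 0.546). The only member called higher in J was thus a single base away from one that was nearly even, at 1.06, and 2 bases from one listed in A only. The sum of the group leaned to A.

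Pairs that differed at 1 or 2 bases showed the same kind of split. A single difference, U2C, separated novel_miR242, with 24 reads in A and a listed 0 in J, from novel_miR260, with 244 and 151. U4C and A8G separated novel_miR136, with 96 and 100, from novel_miR336, with 36 and 0, and A15C and U21C separated novel_miR64 from novel_miR205. The differing bases are in capitals.
novel_miR242: aUgggaacacaagugguacauca
novel_miR260: aCgggaacacaagugguacauca
novel_miR136: aagUuggAuguagagauagguua
novel_miR336: aagCuggGuguagagauagguua
novel_miR64: guugaauuuugaucAaacggUua
novel_miR205: guugaauuuugaucCaacggCua

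Of the 10 pairs of members that differed at 1 or 2 bases, 8 joined a member read in A only with one read in both libraries. The member read in A only had fewer reads in all in 5 of these and more in 3, which were novel_miR275 beside novel_miR290 and novel_miR139 beside novel_miR115 and novel_miR178. The summed ratios were 0.675 (0.549 to 0.827) for novel_miR242 with novel_miR260 and 0.907 (0.692 to 1.19) for novel_miR136 with novel_miR336. The remaining group of 3, novel_miR103, novel_miR212 and novel_miR246, held 62 reads in A against 25 in J, at 0.483 (0.291 to 0.780), and novel_miR212 differed from novel_miR246 by A9G and U10A. A last pair, novel_miR153 and novel_miR154, had 43 reads each in A and differed only at base 12, where novel_miR153 was deposited with an ambiguous letter. Whether both names list the same reads was not tested. Counting them once changed the summed ratio of the members to 0.429.

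**Figure D5:**
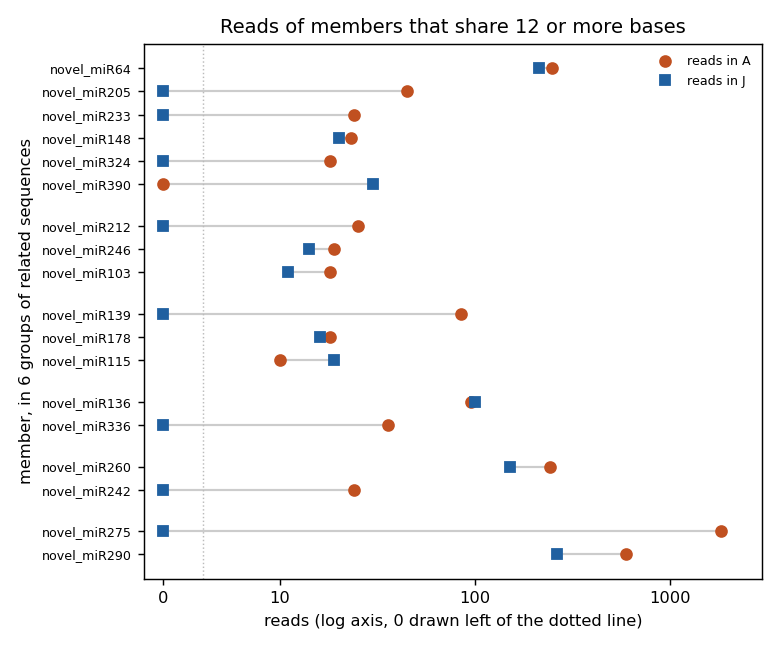
Reads in A (orange circles) and J (blue squares) of the 18 members in the 6 groups that share 12 or more identical bases, on a log axis with 0 drawn left of the dotted line. Every group holds a member listed at 0 in one library beside a member with reads in both, as novel_miR275 with 1835 and 0 beside novel_miR290 with 597 and 263.

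Relatives also crossed the length classes. The whole of novel_miR409, of 20 nt, was contained in novel_miR118, and the whole of novel_miR455, of 21 nt, in bases 2 to 22 of novel_miR237. The shared bases are in capitals.
novel_miR118: UAGUAUAAGUGGGAGCCUCGcgg
novel_miR409: UAGUAUAAGUGGGAGCCUCG
novel_miR237: aGGACACCGGAAGUAGGAGGGCa
novel_miR455: GGACACCGGAAGUAGGAGGGC

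In both cases the long form was listed in A only and the short form in J only. For novel_miR118, 23 reads were counted in A, and novel_miR409 had 29 in J. For novel_miR237, 123 reads were counted in A, and novel_miR455 had 59 in J. The listed 0 of such a member therefore stood beside J reads of nearly the same sequence under another name. Among the 29 members read in A only, 11 (37.9%) shared 12 or more bases, on either strand, with a predicted miRNA that had reads in J, and without them, an alternative chosen after seeing the data, 18 were left. Among the 12 read in J only, the single such member was novel_miR390.

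No member shared 12 identical bases or the seed with a known miRNA. The 66 members had 61 distinct seeds, and the 5 that were shared joined pairs, among them novel_miR324, read in A only, with novel_miR429, read in J only. With shorter or longer links the number of members in groups changed little, to 23 with a run of 10 bases and 15 with 14.

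Cleavage records were rare among the members. A record in the degradome library, a cleavage position on an apple gene model paired with a small RNA, was found for 1 of the 66 members (1.52%), novel_miR27. Records were found for 15 of the 84 sequences of 21 nt (17.9%), 2 of the 16 of 22 nt and 2 of the 6 of 20 nt. The degradome was made from J leaves, and 29 of the members had reads in A only. Whether this bears on the number of records was not tested. The gene model was MDP0000412849, annotated by the study as plasmodesmata-located protein 2, a member of a family of receptor-like proteins found at the channels between plant cells. The site is shown as the only one recorded for a member, 5′ to 3′ in the gene model (model bases 25 to 47, plus strand), with the listed cleavage position, base 37, in capitals.
novel_miR27: aGGGCACUgaaaguggaaggaca
MDP0000412849 site: tctccttccattTtctctgctct

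The listed position lay opposite base 11 of novel_miR27. Along the 23 bases, 18 were paired, 2 formed G and U wobbles (bases 3 and 13) and 3 were mismatched (bases 7, 8 and 22). The deposited count at the site was 45, where the median over all 2204 records was 66 and the lowest was 25. Its score was 4, the highest deposited, which was given to 329 of all records. Over all records, 40.4% lay opposite base 10 of the small RNA and 16.6% opposite base 11. Among the members, novel_miR27 was also 1 of the 5 called higher in A, while the record came from J, where it had 12 reads. Its target was not measured in A.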

How the data were processed

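Small RNA from the pooled A and J leaves was sequenced as 1 library each. The authors removed adapters and low-quality reads, kept inserts of 18 to 30 nt, matched known miRNAs to miRBase 18.0 and predicted others with Mireap, and deposited raw read counts for 380 entries. Clean reads (16220576 in A, 13547321 in J) set the RPM. The paper also states an expression cutoff in RPM for predicted miRNAs, which most of them did not reach on this scale. Degradome fields of another kind (position, count and score) were deposited as text by the authors from PairFinder, with versions not given in the sources used here. What the score and count stand for is not stated in the file. In each record of 31 bases the position was placed at base 15.

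Predicted names came from the study's supplementary list, matched to the counts by sequence. Ratios, intervals and sequence features were computed in Python 3.11.15 with SciPy 1.17.1 and numpy 2.4.6, figures were drawn in matplotlib 3.10.9, and the interval code was tested on simulated data. Members named were the 10 most read, those called, the 5 most read in A only and in J only, groups of related sequences, pairs with at most 2 mismatches, pairing members and those with a record. The members and lists were chosen with earlier results of these data known. Alternatives changed the scale, the ratio and read minimum for a call, the members summed, the weighting, the linking run and the highest score. No replicate exists, so no test between phases was made. No genome was used, so hairpins and loci were not analysed here.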

Additional observations from a re-analysis of the deposited data

How the results depend on the processing

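The scale of the libraries mattered most. The 5 members called higher in A became 22 with known miRNA totals and 11 with the median known ratio set to 1. The 1 called higher in J became 0 with either and 0 with no scaling. Over all 82 predicted miRNAs with reads in both libraries, the 6 called higher in A became 33 and 16 on the first 2 of these scales. The 22 called higher in J became 3, 5 and 13 on the 3 scales. The members' median ratio of 0.882 became 0.375, 0.545 and 0.737 on these 3 scales. Their summed ratio of 0.426 became 0.181, 0.263 and 0.356. Both changes are by construction, since each scale lowers all ratios alike. A ratio of 1.5 for a call gave 8 higher in A and 1 higher in J. A minimum of 50 reads gave 2 higher in A, 0 higher in J and a median of 0.663, with fewer members entering. No share over all predicted miRNAs is given for these rules, so the counts cannot be set against one. The summed ratio was 0.646 without novel_miR275 and 0.772 over members read in both libraries. In alternatives added after seeing the data, it was 0.669 without novel_miR275 and novel_miR290, and the 29 members read in A only became 18 without those related to a sequence read in J. Weighted by reads, adenine came first in 78.0% and last in 92.7%. These weighted shares lean on novel_miR275, novel_miR130 and novel_miR290, which all begin and end with adenine. They had 1835, 904 and 860 reads over both libraries. With scores of 3 or lower, 0 members had a degradome record. A record remained for 6 of 84 at 21 nt, 0 of 16 at 22 nt and 2 of 6 at 20 nt. No paired analysis was possible because each phase has 1 library. Of the 15 members whose interval included 1, 13 were called higher in A with known miRNA totals at the same depth, so the single calls depend on the scale. Depth limits the single ratios as well, as the interval of 0.107 to 0.674 for novel_miR249 on 36 reads shows.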
